A study of Mus musculus with 36 samples.

Results

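Genomic imprinting, expression from 1 parental allele, was followed at 38 autosomal protein-coding genes out of 21938 in the annotation. These genes were taken from a list of known imprinted genes of the mouse and not by any value measured here. Earlier results of these data were known when they were chosen. Whether each is expressed from 1 allele in the cells used was not measured. Of these, 30 lie in 7 imprinted clusters, namely the Peg3 domain (Peg3, Usp29 and Zim1), distal chromosome 7 (Igf2, Ascl2, Cd81, Tssc4, Kcnq1, Slc22a18, Phlda2 and Nap1l4), the Igf2r cluster (Igf2r, Slc22a2 and Slc22a3), the Grb10 cluster (Grb10, Cobl and Ddc), Dlk1-Dio3 (Dlk1, Rtl1 and Dio3), the Peg10 cluster (Peg10, Sgce, Ppp1r9a, Asb4 and Calcr) and the Snrpn cluster (Snrpn, Ndn, Magel2, Mkrn3 and Ube3a). The other 8 (Mest, Plagl1, Rasgrf1, Impact, Nnat, Gnas, Nap1l5 and Inpp5f) were taken as loci of their own. By general knowledge 18 of the 38 are expressed mainly from the paternal allele, 16 mainly from the maternal allele, and 4 from either allele depending on the tissue or promoter.

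Chromatin immunoprecipitation and sequencing had been done for 3 histone marks, H2AK119ub1, H3K27me3 and H3K36me2, in hippocampi of mice at postnatal day 0 (P0) and in neurospheres, which are floating cultures of hippocampal neural progenitor cells taken at P0 and grown for 3 generations with FGF2 and EGF. Controls (Ctrl) carried Kdm2bfl/+ or Kdm2bfl/fl. The conditional knockout (cKO, Kdm2bEmx1-delta-CxxC) had lost exon 13 of Kdm2b through Emx1-Cre, which is active in the dorsal telencephalic lineage and not in every cell of a dissected hippocampus. Exon 13 encodes the CxxC zinc finger, so the cKO makes a KDM2B protein without that domain, not a null. Each mark, source and genotype had 2 libraries, 24 in all. The methods describe lysates split into 4 parts for the 3 marks and an input, but by the labels hippocampus H3K36me2 had inputs of its own, so its libraries cannot be taken to share a lysate with the Polycomb marks. The 12 input samples carry no file of their own. The labels do not say whether replicate libraries came from separate animals, so p-values measure only the spread between these libraries, which may be technical.

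In imprinted clusters, DNA methylation at an imprinting control region is inherited from 1 parent, and the silent allele of many cluster genes is kept off by Polycomb complexes or by DNA methylation. Polycomb repressive complex 1 (PRC1) places ubiquitin on a tail lysine of histone H2A (H2AK119ub1), and PRC2 trimethylates a lysine of the histone H3 tail (H3K27me3). KDM2B is a subunit of a variant PRC1 and binds unmethylated CpG dinucleotides through its CxxC domain, and its JmjC domain removes methyl groups from H3K36, of which H3K36me2 is a form found in gene bodies and between genes. Long noncoding RNAs such as Kcnq1ot1 and Airn are known to recruit Polycomb along the Kcnq1 and Igf2r clusters in placenta. The libraries do not separate the parental alleles, and in bulk material a mark in fewer cells cannot be told apart from less of the mark in each cell.

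Each file lists islands, the stretches of the mm10 genome that SICER, a caller for broad marks, found enriched over input, with the reads counted in each. A gene's promoter was taken as its annotated start ± 2 kb, and its coverage is the percentage of those bases inside islands of a library. Outside islands the count is unknown and not 0. Peg3 and Usp29 start head to head, as do Peg10 and Sgce, and these pairs share most of a promoter window and are not independent. Islands covered between 37.3 and 497 Mb of a library and held between 987329 and 22021439 reads. Some libraries stood apart. For H2AK119ub1 in hippocampus, Ctrl 1 and cKO 1 covered 45.7 and 37.3 Mb, against 157 and 247 Mb for Ctrl 2 and cKO 2. Hippocampus H3K27me3 Ctrl 2 covered 54.9 Mb against 122 to 160 Mb for its peers, and neurosphere H3K36me2 cKO 1 had an island on 42.2% of all promoters, its peers on 11.3 to 20.0%. As a check of the material, 7 of 7 promoters of genes of other lineages (Gata4, Gata6, Myod1, T, Hoxa9, Hoxd10 and Foxa2) carried H3K27me3 in all 8 libraries. Of 7 telencephalic and progenitor genes none did so in the 4 hippocampus libraries and 1, Emx1, did in the 4 neurosphere libraries. The check was not clean, since only 2 of these 7 were without H3K27me3 in every hippocampus library, and 4 in every neurosphere library. H2AK119ub1 was in all 4 neurosphere libraries at 3 of them, Emx1, Lhx2 and Nes, and at 6 of the 7 genes of other lineages. The loss of exon 13 itself cannot be read from islands of histone marks, and the Kdm2b promoter had no H3K27me3 island in any library.

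Promoter sequences of 6 members are shown because they span the range of Polycomb marking met below at the annotated start. Igf2, Cobl and Dlk1 carried H3K27me3 in all 8 libraries and Magel2 in neurospheres only. Ube3a carried no mark at all, and Ddc carried H3K36me2 and no Polycomb mark. Each run is the 300 bases from 250 before to 50 after the start in RefSeq (assembly GRCm38.p6, the mm10 build), read 5′ to 3′ on the strand of the gene, and capitals mark CG dinucleotides, the unit that a CxxC domain binds.
Igf2, chr7:142666767-142667066, minus strand: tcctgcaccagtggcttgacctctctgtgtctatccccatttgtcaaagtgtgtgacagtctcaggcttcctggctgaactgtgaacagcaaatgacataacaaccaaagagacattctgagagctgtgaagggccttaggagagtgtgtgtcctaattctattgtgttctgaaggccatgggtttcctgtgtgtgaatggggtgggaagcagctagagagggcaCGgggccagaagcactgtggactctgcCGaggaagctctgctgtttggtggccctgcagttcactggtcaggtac
Cobl, chr11:12464911-12465210, minus strand: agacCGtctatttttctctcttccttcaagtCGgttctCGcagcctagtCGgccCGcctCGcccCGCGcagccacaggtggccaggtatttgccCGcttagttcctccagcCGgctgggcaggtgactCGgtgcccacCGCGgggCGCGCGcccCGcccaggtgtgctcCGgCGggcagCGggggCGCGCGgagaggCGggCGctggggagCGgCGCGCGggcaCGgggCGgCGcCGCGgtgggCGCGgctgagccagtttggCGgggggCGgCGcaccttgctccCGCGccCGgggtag
Dlk1, chr12:109452573-109452872, plus strand: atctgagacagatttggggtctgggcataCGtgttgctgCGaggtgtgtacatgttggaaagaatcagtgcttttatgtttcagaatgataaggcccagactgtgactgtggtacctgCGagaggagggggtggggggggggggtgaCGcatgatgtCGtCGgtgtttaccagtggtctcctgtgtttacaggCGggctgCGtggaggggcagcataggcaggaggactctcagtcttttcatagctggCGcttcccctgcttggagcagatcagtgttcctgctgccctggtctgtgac
Magel2, chr7:62376729-62377028, plus strand: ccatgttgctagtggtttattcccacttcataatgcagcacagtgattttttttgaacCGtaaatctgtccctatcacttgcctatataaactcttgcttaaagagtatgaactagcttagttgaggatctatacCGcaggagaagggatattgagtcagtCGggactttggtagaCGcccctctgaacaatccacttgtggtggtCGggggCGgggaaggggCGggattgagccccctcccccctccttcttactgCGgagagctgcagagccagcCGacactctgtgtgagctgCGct
Ube3a, chr7:59228500-59228799, plus strand: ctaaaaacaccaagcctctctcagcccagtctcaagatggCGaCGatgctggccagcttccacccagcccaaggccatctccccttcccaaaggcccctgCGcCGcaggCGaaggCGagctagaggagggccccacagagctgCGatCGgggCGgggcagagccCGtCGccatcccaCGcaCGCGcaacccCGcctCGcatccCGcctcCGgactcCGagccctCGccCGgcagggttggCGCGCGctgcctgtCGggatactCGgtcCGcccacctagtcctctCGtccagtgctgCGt
Ddc, chr11:11898095-11898394, minus strand: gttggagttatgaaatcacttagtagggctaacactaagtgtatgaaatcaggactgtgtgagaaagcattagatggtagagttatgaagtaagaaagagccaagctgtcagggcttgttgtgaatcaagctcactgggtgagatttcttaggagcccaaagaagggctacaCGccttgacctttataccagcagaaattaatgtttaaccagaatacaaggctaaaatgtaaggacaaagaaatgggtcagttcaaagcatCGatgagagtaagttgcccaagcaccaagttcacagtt

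The runs hold 2 CG in Igf2, 42 in Cobl, 9 in Dlk1, 10 in Magel2, 29 in Ube3a and 2 in Ddc. H3K27me3 in every library was thus found at a promoter with 42 and at one with 2, and the unmarked Ube3a start lies in a CG-dense sequence. Of the 38 members, 27 had a RefSeq window within 250 bases of the start used here, with a median of 15 CG (range 2 to 42), against a median of 7 over 32544 windows of the same length. The 8 of these with H3K27me3 in all libraries had a median of 12.5 CG and the 14 with none a median of 17. The letters TGCCGC, the known binding motif of ZFP57, a zinc finger protein that protects imprinting control regions, were searched on both strands and occurred in 4 of the 27 windows (14.8%) and in 11.7% of all windows. A match includes a CG and so overlaps the CG count, and it describes the letters only. By base composition over 1 kb, 20 of the 38 promoters were CpG-rich, as were 9733 of 21938 overall.

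H3K27me3 covered part of the promoter in all 8 libraries at 12 of the 38 genes, which is a larger share than the 5.75% of all protein-coding promoters with an island in all 8. Averaged over the 38 genes, promoter coverage by H3K27me3 was 32.6% to 37.5% in the hippocampus libraries and 39.2% to 42.3% in the neurosphere libraries, against 8.37% to 16.5% and 16.8% to 19.5% over all genes. These 12 were Plagl1, Igf2, Ascl2, Kcnq1, Phlda2, Slc22a3, Grb10, Cobl, Dlk1, Calcr, Rasgrf1 and Gnas. Another 9 had H3K27me3 in 1 to 7 libraries (Slc22a18, Rtl1, Dio3, Asb4, Peg10, Sgce, Ndn, Magel2 and Mkrn3), and 17 had none, against 53.0% of all promoters. The 12 came from 5 clusters and 3 separate loci and included 6 maternally expressed, 4 paternally expressed and 2 variable genes, and 5 of them were CpG-rich, against 11 of the 17 without the mark. The count of 12 became 11 with a promoter of ± 1 kb, where Gnas dropped out. It became 9 at equal covered length, where Plagl1, Phlda2 and Calcr dropped out. Equal covered length was set within each mark and source, at that of the library with the least. The sources therefore still differed, at 54.9 Mb in hippocampus and 268 Mb in neurospheres for H3K27me3. With any annotated coding start the count of 12 stayed the same, and the 17 genes without the mark became 14. The 17 became 18 with a promoter of ± 1 kb and 19 at equal covered length. These counts were looked at after the data were seen.

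**Figure D1:**
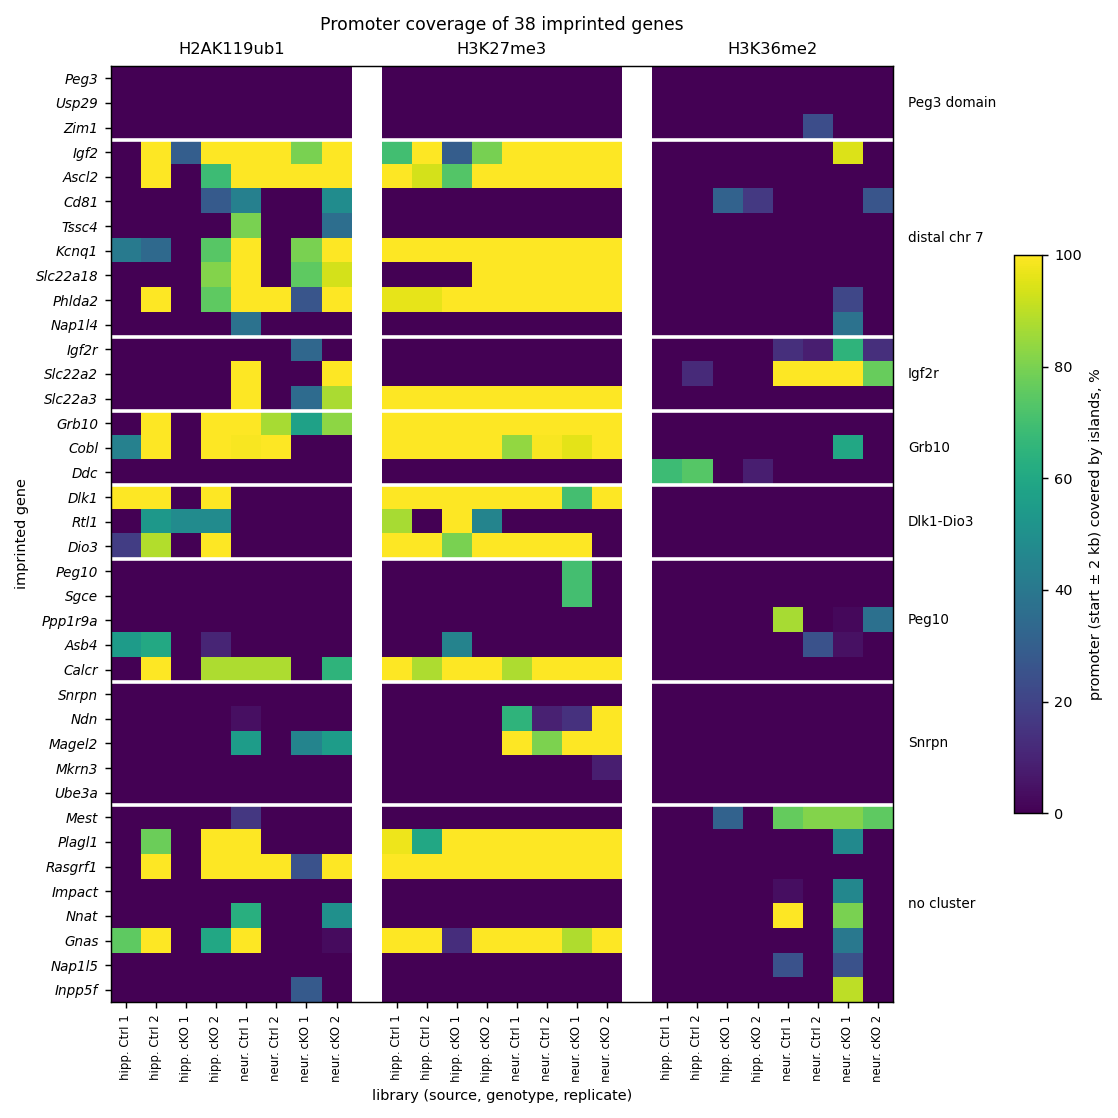
Heat map of the percentage of each promoter (start ± 2 kb) covered by islands, with the 38 genes in rows grouped by cluster and the 24 libraries in columns grouped by mark, source (hipp., hippocampus; neur., neurosphere), genotype and replicate. In the H3K27me3 columns 12 genes are coloured in all 8 libraries and 17 in none, and no gene is coloured throughout the H2AK119ub1 or H3K36me2 columns.

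H2AK119ub1 was found at the same promoters. All 12 genes with H3K27me3 throughout had H2AK119ub1 in at least 3 and at most 7 of its 8 libraries (median 5.5), whereas 8 of the 17 genes without H3K27me3 had it in any library (median 0, at most 3). H2AK119ub1 was found in all 8 libraries at 0 of 38 members (1.07% of all genes) and in none at 12 (47.9%). Mean H2AK119ub1 coverage of the 38 promoters was 2.06% to 32.5% in hippocampus and 15.4% to 41.8% in neurospheres (1.68% to 16.1% and 9.12% to 28.4% over all genes). In neurosphere Ctrl, all 7 members with H2AK119ub1 in both libraries were among the 16 with H3K27me3 in both, and in hippocampus Ctrl 5 of 6 were among the 13. Over all genes the same overlap was 70.8% (1815 of 2562) and 68.1% (700 of 1028), so these small counts show nothing particular to the members. Over all genes, both Ctrl libraries carried H2AK119ub1 at 4.69% of promoters in hippocampus and 11.7% in neurospheres, and H3K27me3 at 10.5% and 23.9%.

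H3K36me2 lay mostly on other promoters, with means over the 38 of 0.661% to 2.25% in hippocampus and 6.02% to 20.9% in neurospheres, close to those over all genes (1.32% to 2.34% and 3.95% to 22%). It was seen in at most 1 library at the 12 genes, in 5 of them (Plagl1, Igf2, Phlda2, Cobl and Gnas) and each time in neurosphere cKO 1, the library with islands on 42.2% of all promoters. With any annotated coding start, Plagl1 had H3K36me2 in 7 of 8 libraries, and the others of the 12 still had it in at most 1. Among the 17 genes without H3K27me3, 12 had it in some library, up to 5 of 8. It was in all 8 libraries at 0 of 38 members (0.155% of all genes) and in none at 20 (49.2%). Both Ctrl libraries carried it at 1 member in hippocampus, Ddc (1.29% of all genes), and at 3 in neurospheres, Mest, Slc22a2 and Igf2r (11.7%). No member carried H3K27me3 and H3K36me2 together in both Ctrl libraries of either source, and over all genes 5.53% (290 of 5245) of those with H3K27me3 in neurospheres and 0.522% (12 of 2299) in hippocampus did. Neither Polycomb mark was seen in any of 16 libraries at 9 members (34.8% of all genes), Peg3, Usp29, Zim1, Ddc, Ppp1r9a, Snrpn, Ube3a, Impact and Nap1l5, and Peg3, Usp29, Snrpn and Ube3a had no promoter island of any mark. The annotated start of Snrpn is its upstream one, so this says nothing of the imprinting control region further in. With any annotated coding start, Usp29, Ddc and Ppp1r9a each had a Polycomb island in at least 1 library.

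Within a cluster the mark was uneven. On distal chromosome 7 (898 kb), whose maternal genes are silenced on the paternal chromosome by Kcnq1ot1, H3K27me3 islands covered 23.9% and 12.9% of the interval in hippocampus Ctrl, 20.7% and 34.6% in hippocampus cKO, 51.0% and 47.4% in neurosphere Ctrl, and 58.6% and 60.3% in neurosphere cKO. All neurosphere libraries were above all hippocampus libraries. The same order held for H3K27me3 over the whole genome (268 to 321 Mb against 54.9 to 160 Mb), so it is not particular to this cluster. H2AK119ub1 covered 3.67% to 32.6% in hippocampus and 28.4% to 54.3% in neurospheres, and these ranges overlapped. Genes in the interval differed, since Igf2, Ascl2, Kcnq1 and Phlda2 carried H3K27me3 in all 8 libraries and Cd81, Tssc4 and Nap1l4, a tetraspanin, a U5 snRNP factor and a histone chaperone gene, in none. The latter had H2AK119ub1 in at most 3 of 8 libraries.

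At Igf2, a fetal growth factor, H3K27me3 covered 69.6% and 99.6% of the promoter in hippocampus Ctrl, 29.6% and 79.6% in cKO, and 100% in all 4 neurosphere libraries. The island over it ran for 15 to 18.4 kb in hippocampus and 26.2 to 33.4 kb in neurospheres, with 46.4 to 85.8 and 86.7 to 184 reads per kb. The 2 ranges of reads per kb did not overlap, but they were not scaled for depth. Over all islands the H3K27me3 libraries averaged 30.6 to 43.3 reads per kb in hippocampus and 42.0 to 60.2 in neurospheres. Its H2AK119ub1 coverage was 0 and 100% in hippocampus Ctrl, 30% and 100% in cKO, 100% and 100% in neurosphere Ctrl, and 80% and 100% in cKO.

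Ascl2, a transcription factor of trophoblast, had H3K27me3 over 100% and 93.4% of the promoter in hippocampus Ctrl, 73.4% and 100% in cKO and 100% in every neurosphere library. Its H2AK119ub1 was 0 and 100% in hippocampus Ctrl, 0 and 68.4% in cKO, and 100% in all 4 neurosphere libraries. For Kcnq1, a potassium channel gene and the host of Kcnq1ot1, H3K27me3 covered the whole promoter in all 8 libraries, in islands of 8.8 to 26.2 kb in hippocampus and 14.8 to 73.2 kb in neurospheres. Kcnq1 H2AK119ub1 was partial, at 41.0% and 34% in hippocampus Ctrl, 0 and 74.0% in cKO, 100% and 0 in neurosphere Ctrl, and 80% and 100% in cKO. Phlda2, a restrainer of placental growth, had H3K27me3 over 96.3% in both hippocampus Ctrl libraries and 100% in the other 6, in islands of 5.4 to 11.8 kb in hippocampus and 26.8 to 94.4 kb in neurospheres. Phlda2 H2AK119ub1 was 0 and 100% in hippocampus Ctrl, 0 and 75% in cKO, 100% and 100% in neurosphere Ctrl, and 26.3% and 100% in cKO. The zeros of these genes in hippocampus fell on Ctrl 1 and cKO 1, the 2 libraries with the least covered length, and a count cannot be read there.

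Slc22a18, a transporter gene next to Phlda2, had H3K27me3 over its whole promoter in all 4 neurosphere libraries and in 1 of 4 hippocampus libraries, cKO 2. In 3 of the neurosphere libraries a single island of 36 to 94.4 kb spanned both Slc22a18 and Phlda2, and neurosphere Ctrl 1 had an H2AK119ub1 island of 106 kb across them. These 2 genes therefore give 1 measurement and not 2.

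**Figure D2:**
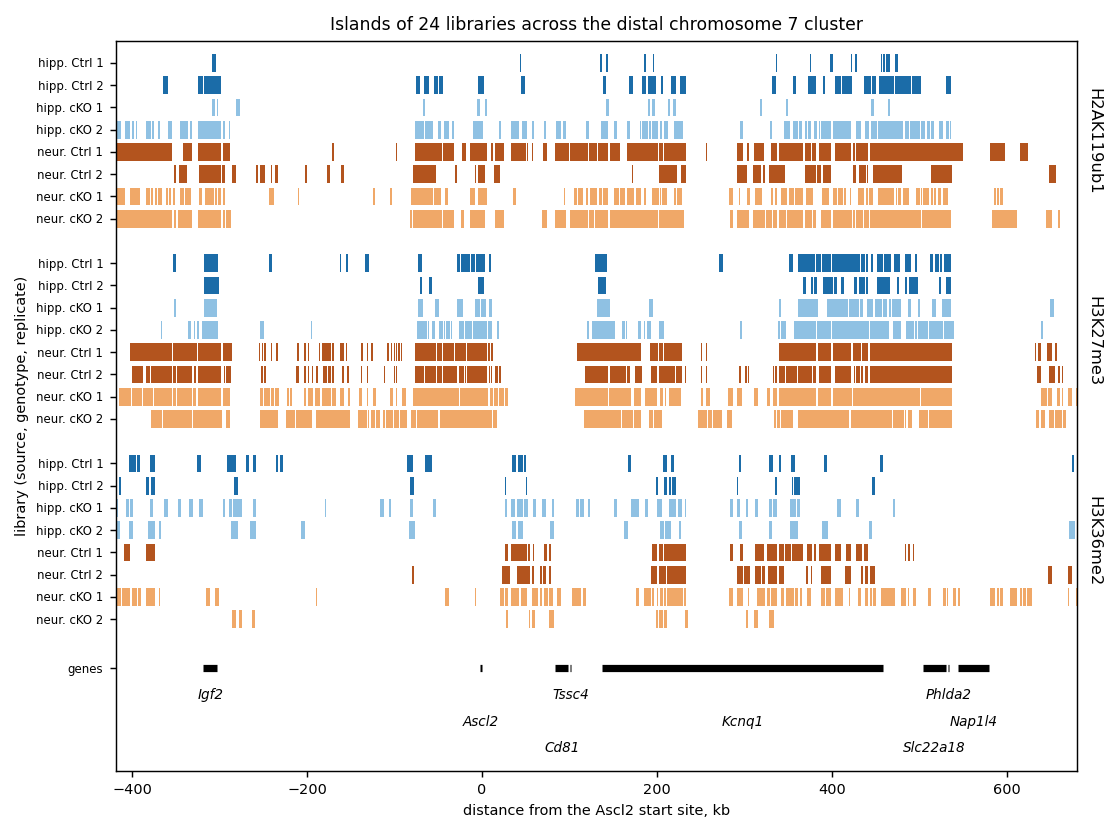
Islands of all 24 libraries across the distal chromosome 7 cluster, plotted by distance from the Ascl2 start in kb, with 1 row per library (dark, Ctrl; light, cKO) and the 8 members as black bars. H3K27me3 fills long blocks around Igf2, around Ascl2 and from within Kcnq1 to Phlda2 in neurospheres, covering 47.4% to 60.3% of the interval against 12.9% to 34.6% in hippocampus, and leaves the Cd81 and Tssc4 starts free.

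Of the 7 clusters, distal chromosome 7 had the most ground shared by H3K27me3 and H3K36me2 in neurosphere Ctrl. Taking the bases called in both neurosphere Ctrl libraries, H3K27me3 covered 390 kb and H3K36me2 109 kb of the interval, and 55.2 kb carried both, which is 50.5% of the H3K36me2 and 14.2% of the H3K27me3. Over the genome the shared bases were 5.48% of H3K36me2 and 7.42% of H3K27me3. In the Igf2r cluster 2 kb was shared, or 1.93% of 104 kb of H3K36me2, and in the Grb10 cluster 1.2 kb, or 4.26% of 28.2 kb. In hippocampus Ctrl none was shared on distal chromosome 7 (101 kb of H3K27me3 and 12.6 kb of H3K36me2). In neurosphere cKO 1.8 kb was shared, 7.63% of 23.6 kb of H3K36me2, against 1.70% genome-wide. Neurosphere H3K36me2 cKO 2 covered 5.28% of the interval, and the other 3 libraries 16.3% to 27%. The overlap was not tested, and whether both marks sat on 1 allele or on different ones cannot be told apart in these data. H2AK119ub1 lay mostly inside H3K27me3 here (166 of 205 kb, 80.8%, in neurosphere Ctrl, against 68.5% over the genome).

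In the Igf2r cluster (351 kb), where Airn is transcribed across Igf2r, H3K27me3 covered 7.81% and 2.51% in hippocampus Ctrl, 6.62% and 10.6% in cKO, 27.8% and 30.2% in neurosphere Ctrl, and 41.6% and 34.1% in cKO. The 4 neurosphere libraries lay above the 4 of hippocampus, as they did in H3K27me3 covered length over the whole genome. The Slc22a3 promoter, of an organic cation transporter gene, was fully covered in all 8 libraries. Slc22a3 H2AK119ub1 was 0 in all 4 hippocampus libraries, 100% and 0 in neurosphere Ctrl, and 35% and 87.4% in cKO. Slc22a2, a second organic cation transporter gene, had no H3K27me3 at its promoter and instead the highest H3K36me2 of the 38 genes, at 100% in neurosphere Ctrl 1, Ctrl 2 and cKO 1, 76.7% in cKO 2, and 0, 11.7%, 0 and 0 in hippocampus. Igf2r, the receptor that clears IGF2, carried H3K36me2 over 13.4% and 8.43% in neurosphere Ctrl and 65% and 13.4% in cKO, none in hippocampus, and no H3K27me3.

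The Grb10 cluster (651 kb) held a pair of Polycomb promoters. Grb10, an adaptor that dampens insulin and growth factor signalling, had H3K27me3 over 100% of its promoter in all 8 libraries, with islands of 17.2 to 34 kb in hippocampus and 9.2 to 53.2 kb in neurospheres. Cobl, an actin nucleator of dendrites, had 100% in the 4 hippocampus libraries, 84.0% and 99.0% in neurosphere Ctrl, and 96.0% and 100% in cKO, in islands of 4.6 to 19.6 kb and 4 to 36 kb. For Grb10, H2AK119ub1 covered 0 and 100% in the Ctrl and again 0 and 100% in the cKO hippocampus libraries. Ddc, the decarboxylase that makes dopamine and serotonin, had neither Polycomb mark at its annotated start. Its H3K36me2 covered 68.6% and 73.6% of that promoter in hippocampus Ctrl and 0 and 8.58% in cKO, with 0 in all neurosphere libraries. With any annotated coding start, Ddc had H2AK119ub1 in 3 of 8 libraries, H3K27me3 in 2 and H3K36me2 in 6. H3K27me3 covered 12.6% to 31.2% of the cluster in hippocampus, 24.5% and 23% in neurosphere Ctrl, and 32.7% and 52.4% in cKO.

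Dlk1-Dio3 (828 kb) differed between the sources in H2AK119ub1. No H2AK119ub1 island lay inside it in any of the 4 neurosphere libraries, while it was covered to 8.91% and 40.2% in hippocampus Ctrl and 8.19% and 56.0% in cKO. In the same neurosphere libraries the 1 Mb upstream was covered to 6.94% to 31.3% and the 1 Mb downstream to 1.74% to 21.3%. H3K36me2 was low there too in neurospheres, at 0, 0, 1.16% and 0, against 8.04% to 29.6% upstream and 18.5% to 57.1% downstream. H3K27me3 was not missing, at 29.1% and 11.4% in hippocampus Ctrl, 29.5% and 30.3% in cKO, 22.3% and 48.5% in neurosphere Ctrl, and 38.1% and 2.22% in cKO, where cKO 2 alone was low. The 1 Mb on either side of the cluster had 19.6% to 30.5% and 9.06% to 14.9% H3K27me3 in neurospheres, cKO 2 included.

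Dlk1, a membrane protein related to Notch ligands, had H3K27me3 over 100% of the promoter in all hippocampus libraries, 100% and 100% in neurosphere Ctrl, and 70% and 100% in cKO. Dlk1 H2AK119ub1 was 100% and 100% in hippocampus Ctrl, 0 and 100% in cKO, and 0 in all 4 neurosphere libraries. Dio3, the deiodinase that inactivates thyroid hormone, had H3K27me3 over 100% and 100% in hippocampus Ctrl, 80% and 100% in cKO, 100% and 100% in neurosphere Ctrl, and 100% and 0 in cKO. Its H2AK119ub1 was 18.3% and 88.3% in hippocampus Ctrl, 0 and 100% in cKO, and 0 in neurospheres. Rtl1, a gene derived from a retrotransposon, had H2AK119ub1 over 0 and 53.2% in hippocampus Ctrl and 48.2% and 48.2% in cKO, and H3K27me3 over 86.8% and 0 in Ctrl and 100% and 45% in cKO, with neither mark in neurospheres. Dlk1, Dio3 and Asb4 were the 3 members with H2AK119ub1 in both hippocampus Ctrl libraries and in no neurosphere library, a pattern of 0.223% of all genes (49 genes). The count was 2 with a promoter of ± 1 kb, with any coding start or at equal covered length. That length was set within each source and not between the sources.

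**Figure D3:**
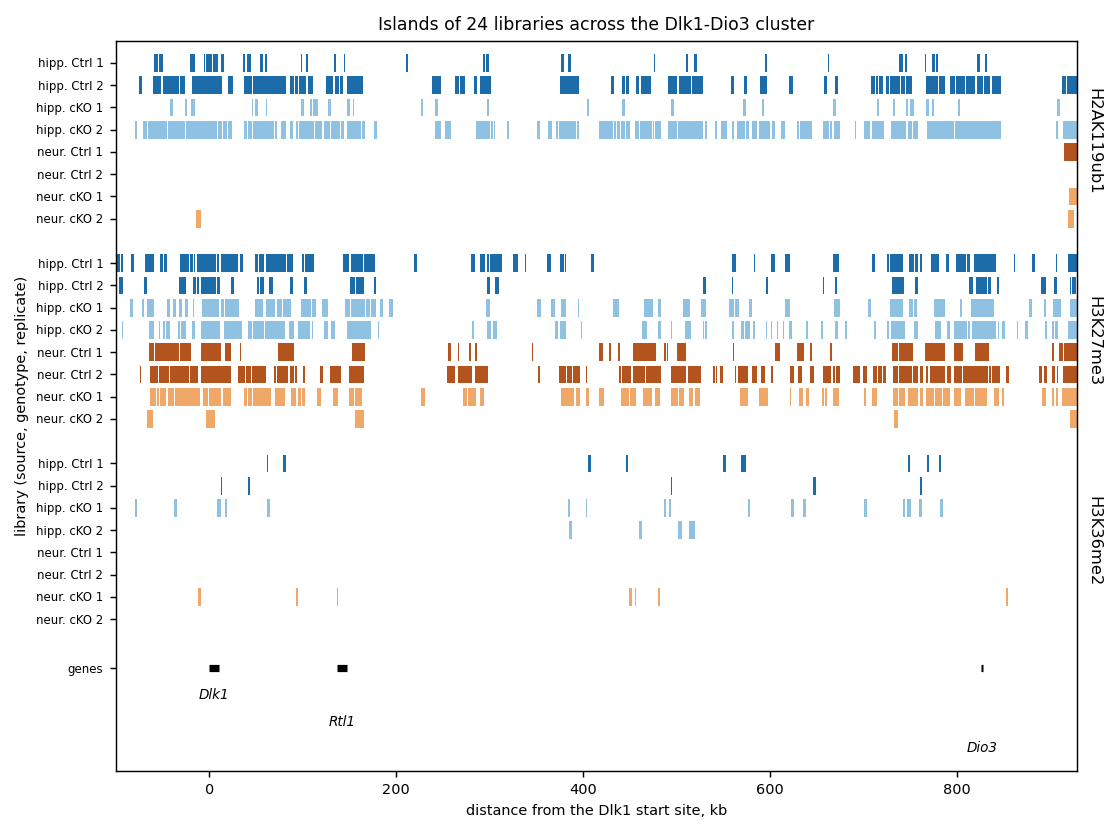
Islands of all 24 libraries across the Dlk1-Dio3 cluster, plotted by distance from the Dlk1 start in kb, with 1 row per library (dark, Ctrl; light, cKO). The H2AK119ub1 rows are filled in hippocampus and empty between Dlk1 and Dio3 in all 4 neurosphere libraries, while H3K27me3 is present in both sources and sparse in neurosphere cKO 2, which covers 2.22% of the interval.

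In the Peg10 cluster (1747 kb) Polycomb marks were found at Calcr and Asb4, near its opposite ends. Calcr, the calcitonin receptor gene, had H3K27me3 over 100% and 87.8% in hippocampus Ctrl, 100% and 100% in cKO, 87.8% and 100% in neurosphere Ctrl, and 100% and 100% in cKO. Its H2AK119ub1 was 0 and 100% in hippocampus Ctrl, 0 and 87.8% in cKO, 87.8% and 87.8% in neurosphere Ctrl, and 0 and 65% in cKO. Asb4, of the ankyrin repeat and SOCS box family, had H2AK119ub1 over 55% and 60.4% in hippocampus Ctrl, 0 and 10.4% in cKO, and 0 in neurospheres. The shared start of Peg10 and Sgce had H3K27me3 in 1 library, neurosphere cKO 1, and Ppp1r9a, which encodes neurabin, had H3K36me2 over 87.1%, 0, 2.1% and 37.1% in the neurosphere libraries. With any annotated coding start of Asb4, H3K27me3 was found in 5 of 8 libraries and not in 1.

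The Snrpn cluster (3191 kb), deleted or silenced in Prader-Willi and Angelman syndromes in humans, was nearly bare in hippocampus, with H3K27me3 over at most 0.489% and no H2AK119ub1. In neurospheres H3K27me3 covered 2.14% and 1.84% in Ctrl and 3.5% and 5.79% in cKO. At promoters it was found at Ndn and Magel2, neighbouring genes of the MAGE family. Their merged region held 28.4, 20.8, 36 and 61.6 kb of islands in these libraries, and the rest of the coverage lay elsewhere in the cluster. Magel2 had 0 in all 4 hippocampus libraries, 100% and 80.2% in neurosphere Ctrl and 100% and 100% in cKO. Ndn had 0 in hippocampus, 65% and 9.2% in neurosphere Ctrl and 14.2% and 100% in cKO, at a start 1708 bases from that of RefSeq. In neurosphere cKO 2 a single island of 61.6 kb with 3478 reads covered both. They were the 2 members with H3K27me3 in all 4 neurosphere libraries and no hippocampus library (2.93% of all genes), and Ndn left the count with a promoter of ± 1 kb. Mkrn3, a zinc finger ubiquitin ligase gene, had 8.45% in neurosphere cKO 2 and 0 elsewhere. The Peg3 domain (296 kb) held H3K27me3 over at most 0.811% and no Polycomb island at any promoter, and Zim1 alone of its genes had an H3K36me2 promoter island, of 23.8% in neurosphere Ctrl 2.

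Among the separate loci, Plagl1, a zinc finger transcription factor gene, had H3K27me3 over 97.6% and 60% in hippocampus Ctrl and 100% in the other 6 libraries, in islands of 2.4 to 8.4 kb in hippocampus and 5.8 to 11.6 kb in neurospheres. Its H2AK119ub1 was 0 and 77.6% in hippocampus Ctrl, 0 and 100% in cKO, 100% and 0 in neurosphere Ctrl, and 0 and 0 in cKO. Rasgrf1, a Ras exchange factor gene of neurons, had H3K27me3 over 100% in all 8 and H2AK119ub1 over 0 and 100% in hippocampus Ctrl, 0 and 100% in cKO, 100% and 100% in neurosphere Ctrl, and 25% and 100% in cKO. Gnas, which encodes the stimulatory G protein alpha subunit and has several imprinted promoters, was measured at its most upstream start and had H3K27me3 over 100% and 100% in hippocampus Ctrl, 13% and 100% in cKO, 100% and 100% in neurosphere Ctrl, and 88.0% and 100% in cKO. Gnas H2AK119ub1 was 75% and 100% in hippocampus Ctrl, 0 and 60% in cKO, 100% and 0 in neurosphere Ctrl, and 0 and 2.98% in cKO. Mest, a hydrolase gene, carried H3K36me2 over 76.4% and 81.4% in neurosphere Ctrl and 81.4% and 75% in cKO, and over 0, 0, 31.4% and 0 in hippocampus. The Mest start used here was not CpG-rich and lay 9959 bases from the nearest RefSeq start, so these values may miss its other promoters. For Plagl1 that distance was 30328 bases. Nnat, a membrane protein gene of neurons, had H3K36me2 in 2 neurosphere libraries (100% in Ctrl 1 and 80% in cKO 1). Impact, Nap1l5 and Inpp5f had no H3K27me3, and their H3K36me2 came from neurospheres alone.

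The sources were compared by read counts on H3K27me3 regions formed by merging islands and called in all 4 Ctrl libraries, with edgeR's quasi-likelihood test and Benjamini-Hochberg adjustment over all regions. Of 3428 regions, 1184 differed between neurosphere Ctrl and hippocampus Ctrl (34.5%), 572 lower and 612 higher in neurospheres, and between 634 (without neurosphere Ctrl 2) and 1974 (without hippocampus Ctrl 1) when a library was left out. The members fell in 13 of these regions, of which 4 were called. That share was no larger than over all regions, so the calls show nothing particular to the members. Kcnq1 was higher in neurospheres, with 5297 and 3572 reads against 542 and 288 (log2 fold change 1.80 ± 0.22 SE, adjusted p = 0.0049). The region of Slc22a18 and Phlda2 was higher, with 9165 and 6979 against 1754 and 1033 reads (0.90 ± 0.21, adjusted p = 0.028). Ascl2 was higher, with 3750 and 2990 against 954 and 333 (0.89 ± 0.24, adjusted p = 0.040). These 3 regions lie in the distal chromosome 7 cluster. Cobl was lower relative to the libraries' totals, with 210 and 179 reads against 287 and 182 (-1.91 ± 0.34, adjusted p = 0.012).

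Island length differed as well. Kcnq1 islands spanned 73.2 and 55.2 kb in neurospheres and 13 and 8.8 kb in hippocampus, and per kb of island its difference was 0.04 on the log2 scale (adjusted p = 0.809 in edgeR). Ascl2 differed by -0.03 per kb (adjusted p = 0.929). Slc22a18 with Phlda2 kept a difference of 0.66 per kb (adjusted p = 0.0013) and Cobl one of -0.68 (adjusted p = 0.015), and Igf2, not called by counts (0.64, adjusted p = 0.186), differed by 0.86 per kb (adjusted p = 0.00046, edgeR). Without neurosphere Ctrl 1 the adjusted p of Cobl, Ascl2 and the Slc22a18 region became 0.111, 0.246 and 0.245, and without neurosphere Ctrl 2 0.0788, 0.312 and 0.273, whereas Kcnq1 stayed called without any one library (edgeR, largest adjusted p 0.0126). By counts no difference passed in edgeR for Dio3 (-1.02, adjusted p = 0.078) or Dlk1 (-0.58, adjusted p = 0.103). Per kb both passed, with -0.61 for Dio3 (edgeR adjusted p = 0.0086) and -0.33 for Dlk1 (edgeR adjusted p = 0.023). Grb10 (0.36), Gnas (0.43) and Rasgrf1 (0.40) were higher in neurospheres per kb alone (edgeR adjusted p = 0.030, 0.013 and 0.017). H2AK119ub1 gave 0 calls among 2644 regions (0%), with 456 at an unadjusted p under 0.05 and 519 by DESeq2, and up to 253 in edgeR with a library left out (neurosphere Ctrl 2), and 6 of its regions held members. H3K36me2 gave 1561 of 10083 (15.5%; 814 without neurosphere Ctrl 1), and none of the regions tested lay on a member promoter.

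**Figure D4:**
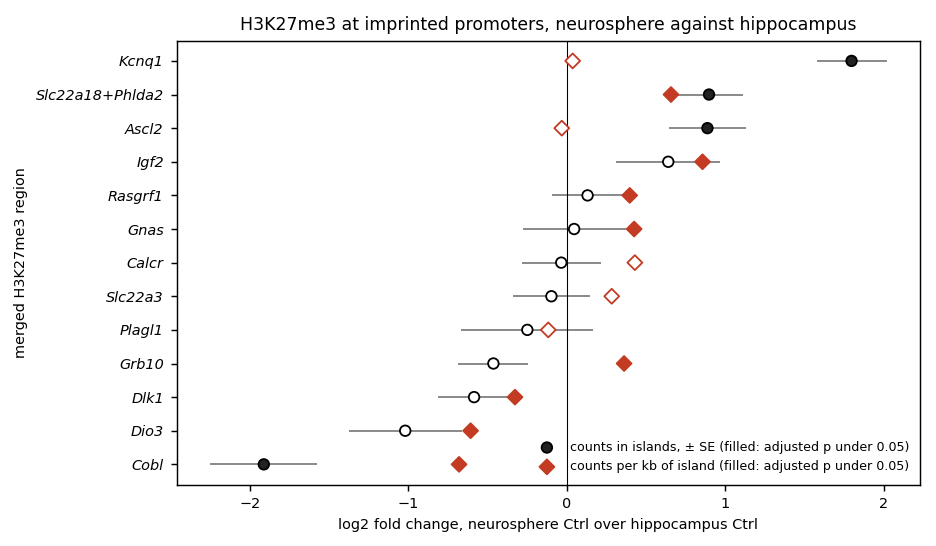
Log2 fold change of H3K27me3, neurosphere Ctrl over hippocampus Ctrl, for the 13 merged regions on imprinted promoters. Circles give read counts with their SE and diamonds reads per kb of island, and filled symbols have an edgeR adjusted p under 0.05, as 4 circles have. Kcnq1 moves from 1.80 by counts to 0.04 per kb.

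Loss of the KDM2B CxxC domain was examined first at promoters, by asking at how many members both cKO libraries lay below, or above, both Ctrl libraries. With 2 libraries against 2, an exact permutation test cannot give p below 0.333, and over both sources not below 0.0556, so no single gene could pass. For H2AK119ub1 in hippocampus 2 members were lower (0.483% of all genes), Asb4 (55% and 60.4% against 0 and 10.4%) and Gnas (75% and 100% against 0 and 60%), and 0 were higher (0.579%). In neurospheres 3 were lower (3.75%), and 0 were higher (2.13%). The 3 were Cobl (99.0% and 100% against 0 and 0), Calcr (87.8% and 87.8% against 0 and 65%) and Grb10 (100% and 87.05% against 57.05% and 82.95%). Cobl had no H2AK119ub1 island at its promoter in either neurosphere cKO library, while its H3K27me3 promoter coverage stayed between 84.0% and 100%. The hippocampus libraries had Cobl H2AK119ub1 over 44.0% and 100% (Ctrl) and 0 and 100% (cKO), so the genotypes overlapped there. Without Ctrl 1 or cKO 2 the hippocampus count lower in cKO became 6, and without Ctrl 2 or cKO 2 the neurosphere count became 12 or 6, since 1 library then stood for a group. At equal covered length the mean difference, cKO minus Ctrl, was -27.5 percentage points for Asb4 and 0 for Gnas in hippocampus, and -50 for Cobl and -65 for Grb10 in neurospheres, against -52.5, -57.5, -99.5 and -23.5 with all islands. The Gnas means were then equal, and Cobl in neurosphere Ctrl 1 fell to 0, the value of both cKO libraries. At these genes the genotypes were thus no longer separated.

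For H3K27me3 in hippocampus 0 members were lower (0.793%) and 2 higher (3.62%), Plagl1 and Phlda2, the latter by 3.72 percentage points. At equal covered length Plagl1 lay 30.0 points lower in cKO, the opposite direction, and Ctrl 2 was the library of this set with the least covered length. In neurospheres 0 were lower (5.34%) and 0 higher (3.43%). For H3K36me2 in hippocampus 1 was lower (0.524%), Ddc, and 1 higher (0.948%), Cd81 (0 and 0 against 31.6% and 16.6%), and in neurospheres 0 were lower (2.76%) and 0 higher (2.08%). No member was separated at the promoter in the same direction in both sources.

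Over gene bodies, the clearest pattern was in neurosphere H3K27me3, where the pair of cKO libraries lay above the pair of Ctrl libraries at 10 of 38 members, against 6.51% of all genes, and below at 0 (5.78%). Among genes with an H3K27me3 island in the body in at least 1 of these 4 libraries, the counts were 10 of 24 members and 15.1% of 9461 genes. They came from 4 clusters and 1 separate locus. Kcnq1 came from distal chromosome 7, Slc22a2 and Slc22a3 from the Igf2r cluster, Grb10, Cobl and Ddc from the Grb10 cluster, Sgce, Asb4 and Calcr from the Peg10 cluster, and Plagl1 from outside a cluster. Neighbours in a cluster share domains and are not independent.

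Cobl had 30.1% and 24% of its body covered in Ctrl and 42.0% and 80.5% in cKO. Calcr had 23.7% and 24.7% in Ctrl and 41.4% and 74.5% in cKO, and for both genes cKO 2 was far above cKO 1. Slc22a3 had 73.6% and 69.4% against 84.9% and 89.9%, Grb10 37.1% and 36.8% against 44.3% and 46.9%, and Kcnq1 59.4% and 55.7% against 66.8% and 62.3%. Plagl1 had 6.04% and 5.19% against 9.97% and 18.1%. Asb4 had 0 and 0 against 7.25% and 9.27%, and in hippocampus 22.2% and 7.25% against 23% and 25.8%, so that it was the 1 member higher in both sources for this mark, as were 1.54% of all genes, with a two-sided exact permutation p of 0.0556 over both sources, the smallest possible. At equal covered length Asb4 had 0 and 0 against 7.25% and 0 in neurospheres, and the genotypes overlapped. Slc22a2, Ddc and Sgce stayed under 12% in all 4 neurosphere libraries. In all, 15 members had a higher cKO mean, 6 a lower one and 17 equal means.

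The cKO libraries of this set covered more of the genome, at 305 and 321 Mb against 283 and 268 Mb in Ctrl, with fewer reads per kb of island. When every library was reduced to the same covered length, keeping the islands with the most reads per kb, 5 of the 10 (Plagl1, Slc22a3, Cobl, Sgce and Calcr) still had the cKO pair above the Ctrl pair, against 4.64% of all genes. Of the other 5, Slc22a2 turned to the opposite side (3.16% and 4.96% in Ctrl, 0 and 0 in cKO) and Kcnq1, Grb10, Ddc and Asb4 overlapped, and Gnas became lower in cKO (28.3% and 29.6% against 24.5% and 23.5%).

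**Figure D5:**
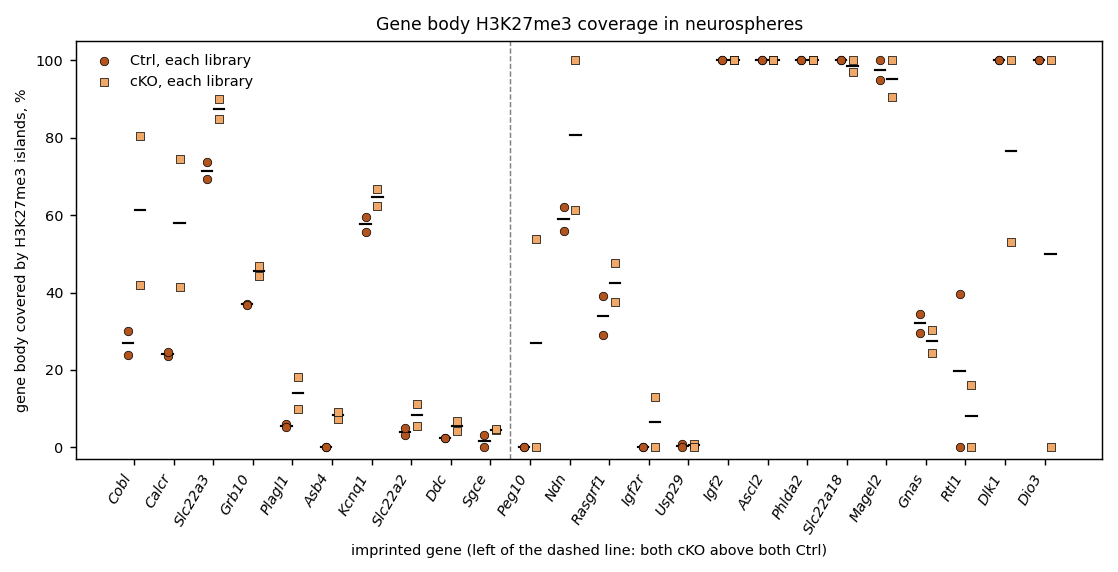
Percentage of the gene body covered by H3K27me3 islands in each neurosphere library, for the 24 members with an island in any of the 4 libraries (circles, Ctrl; squares, cKO; bars, means of 2). Left of the dashed line are the 10 members whose cKO libraries both lie above both Ctrl libraries, with the widest gaps at Cobl and Calcr.

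The other gene body comparisons gave few members. Hippocampus H2AK119ub1 was lower at 1 (0.629%), Sgce, and higher at 0 (1.86%). Neurosphere H2AK119ub1 was lower at 4 (4.23%), Usp29, Plagl1, Slc22a3 (61.2% and 35.6% against 13.1% and 30.6%) and Cobl, and higher at 0 (4.82%). At equal covered length the genotypes overlapped at all 4 of these genes, with Ctrl 1 falling to between 0 and 0.175%, and Grb10 was the 1 member lower in cKO (6.36% and 13.4% against 1.19% and 0). Hippocampus H3K27me3 was lower at 1 (0.948%), Gnas (28.6% and 19% against 14.4% and 17.8%), and higher at 3 (6.76%), Dlk1, Asb4 and Rasgrf1. Hippocampus H3K36me2 was lower at 1 (2.29%), Grb10, and higher at 5 (5.62%), Mest, Kcnq1, Ddc, Ppp1r9a and Rasgrf1. Neurosphere H3K36me2 was lower at 3 (4.33%), Slc22a3, Ddc and Peg10, and higher at 0 (4.62%).

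By read counts, no region differed between cKO and Ctrl in any of the 6 comparisons after Benjamini-Hochberg adjustment in edgeR. In hippocampus the called share was 0% of 2750 H2AK119ub1, 4387 H3K27me3 and 6447 H3K36me2 regions, with 30, 155 and 318 at an unadjusted p under 0.05 and 0, 3 and 20 by DESeq2. In neurospheres it was 0% of 6060, 11262 and 34454 regions, with 101, 2077 and 736 at an unadjusted p under 0.05 and 32, 738 and 83 by DESeq2. Without a single library edgeR called up to 671 neurosphere H2AK119ub1 (without Ctrl 1), 2409 neurosphere H3K27me3 (without cKO 1, and 96 without cKO 2), 2039 neurosphere H3K36me2 (without cKO 1) and 23 hippocampus H3K27me3 regions (without cKO 1). Members lay in 6, 16 and 0 of the hippocampus and 9, 14 and 4 of the neurosphere regions. Of the member regions of neurosphere H3K27me3, Cobl had the lowest p, with 775 and 620 reads for Ctrl against 1131 and 1754 for cKO (log2 fold change 1.04 ± 0.26 SE, edgeR adjusted p = 0.193, DESeq2 adjusted p = 0.051). The summed length of its islands was 18.6 and 16 kb for Ctrl against 30.6 and 44.4 kb for cKO. Gnas (-0.75 ± 0.22, edgeR adjusted p = 0.215) and Igf2 (-0.61 ± 0.19, edgeR adjusted p = 0.231) lay the other way. Dlk1 had 1650 and 1602 reads for Ctrl against 1093 and 346 for cKO (-1.16 ± 0.59, edgeR adjusted p = 0.346), with cKO 2 far below cKO 1. Without cKO 1 the member regions of Cobl, Calcr, Ndn with Magel2 and Mkrn3 (higher) and of Dlk1, Gnas, Igf2, Kcnq1 and Slc22a18 with Phlda2 (lower) were called, so these calls rested on cKO 2 alone. For neurosphere H3K36me2, Cd81 had the lowest unadjusted p (1.26 ± 0.42, edgeR adjusted p = 0.962), and without cKO 1 Igf2r was called (-1.39 ± 0.26, edgeR adjusted p = 0.0498). For neurosphere H2AK119ub1, a region of 157.4 kb with the Nnat start at its end had a log2 fold change of 2.65 ± 0.30 without Ctrl 1. With all libraries the value was 0.54 ± 0.80, since Ctrl 1 held 9282 reads, against 545 in Ctrl 2 and 2403 and 6004 in cKO. The Nnat promoter itself was covered to 63.1% and 0 in Ctrl and 0 and 50% in cKO.

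The genotype effect was also compared between sources on regions present in every library of a mark, 8 each. With an interaction term edgeR called 0% of 1555 H2AK119ub1, 2373 H3K27me3 and 5204 H3K36me2 regions, with 22, 258 and 205 at an unadjusted p under 0.05 and 0, 47 and 10 by DESeq2. Members lay in 4, 13 and 0 of them, and the lowest adjusted p among these was 0.460 at Grb10 (0.90 ± 0.40, edgeR).

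Other imprinted or adjoining genes of the same loci, a second list of 31 genes, were read the same way. H3K27me3 covered part of the promoter in all 4 hippocampus libraries at 4 of them (Cdkn1c, Klf14, Slc38a4 and Meg3) and in all 4 neurosphere libraries at 8 (Cdkn1c, Th, Tnfrsf23, Trpm5, Klf14, Begain, Blcap and Slc38a4), with 21 and 14 genes at none. H2AK119ub1 was in all 4 libraries at 0 in hippocampus and 1, Blcap, in neurospheres, and H3K36me2 at 0 and 3 (Pon2, Pon3 and Kcnq1ot1). Between genotypes, H2AK119ub1 was higher in cKO at 1 and lower at 0 in hippocampus and lower at 2 and higher at 0 in neurospheres, H3K27me3 was separated at 0 in hippocampus and lower at 2 and higher at 2 in neurospheres, and H3K36me2 was higher at 2 in hippocampus and lower at 4 in neurospheres. Meg3, the maternal noncoding RNA gene of the Dlk1-Dio3 cluster, had H3K27me3 over 90% and 95% in hippocampus Ctrl, 40% and 100% in cKO, 100% and 100% in neurosphere Ctrl, and 60% and 0 in cKO, with cKO 2 again at 0.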

How the data were processed

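The data were 24 island lists, 2 for each of 3 marks, 2 sources and 2 genotypes, while the 12 input samples have no file. Per the labels and the study's methods, the authors cut chromatin with micrococcal nuclease and sonication, trimmed reads (cutadapt), aligned them to mm10 with Bowtie2 2.4.5, removed duplicates and called islands per library against input with SICER (window 200 bp, gap 600 bp, FDR 0.01). The version of SICER is not given in the sources used here. The deposited values are counts of reads per island, whole numbers without normalization, and regions below the caller's threshold are absent, so that called length and counts move with depth and enrichment. Groups came from sample titles.

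Starts and gene bodies were from GENCODE vM21 (GRCm38), and promoter windows from RefSeq (GRCm38.p6), where 32 members matched by symbol and 27 lay within 250 bases of the start used. A CpG-rich promoter had over 50% GC and a CpG observed to expected ratio above 0.6 in 1000 bp. Islands of the libraries compared were merged into regions, and those called in every one were tested with edgeR 4.0.16 (quasi-likelihood, TMM, Benjamini-Hochberg, threshold 0.05) in R 4.3.3, with DESeq2 1.42.0 as an alternative. Coverage was compared by exact permutation in Python 3.11.15. Scripts were tested on simulated data. The 38 genes, the lists of 31 other genes of these loci, 7 telencephalic genes and 7 genes of other lineages, and the tests were chosen with earlier results of these data known. Values per library are given for members with an edgeR call, a promoter difference without overlap of at least 20 percentage points, H3K27me3 in all 8 libraries, or one of the 3 highest mean coverages of a mark, and others are given by cluster. Examples outside these were chosen after their values were seen.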

Additional observations from a re-analysis of the deposited data

Results flagged for a closer look

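The gene body H3K36me2 coverage of Ddc, the decarboxylase gene of the Grb10 cluster, lay in opposite directions in the sources. The hippocampus Ctrl libraries had 19.2% and 12.5%, and the hippocampus cKO libraries 19.3% and 31.7%, a difference of means of 9.585 percentage points. The neurosphere Ctrl libraries had 43.5% and 44.0%, and the neurosphere cKO libraries 33.6% and 15.5%, a difference of -19.28 points. It was singled out because every cKO library lay above the Ctrl libraries in hippocampus and below them in neurospheres. The hippocampus difference rests on cKO 2, since cKO 1 lay beside Ctrl 1. The difference between the sources was not tested.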

How the results depend on the processing

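Members whose genotypes did not overlap changed in number as follows. With ± 1 kb promoters the neurosphere H2AK119ub1 count lower in cKO went from 3 to 1, and the hippocampus counts higher in cKO from 2 to 0 (H3K27me3) and from 1 to 0 (H3K36me2). With any coding start, the count lower for hippocampus H2AK119ub1 went from 2 to 1, that higher for neurosphere H3K27me3 from 0 to 1, those lower and higher for hippocampus H3K36me2 each from 1 to 2, and those for neurosphere H3K36me2 from 0 to 2 (lower) and 1 (higher). At equal covered length the hippocampus H3K27me3 promoter count higher in cKO went from 2 to 0, Plagl1 turning to -30.0 points, and for gene bodies the neurosphere counts became 1 (H2AK119ub1 lower, from 4), 2 (H3K27me3 lower, from 0), 5 (H3K27me3 higher, from 10) and 5 (H3K36me2 lower, from 3), and the hippocampus H3K36me2 counts 2 lower (from 1) and 2 higher (from 5).

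Leaving out each library in turn gave promoter counts, lower and higher in cKO, of 2 to 6 and 0 to 5 (hippocampus H2AK119ub1), 3 to 12 and 0 to 4 (neurosphere H2AK119ub1), 0 to 4 and 2 to 4 (hippocampus H3K27me3), 0 to 2 and 2 to 3 (neurosphere H3K27me3), 1 to 2 and 1 to 2 (hippocampus H3K36me2) and 0 to 2 and 0 to 9 (neurosphere H3K36me2, 9 without cKO 2). Gene body counts were 1 to 10 and 1 to 14, 5 to 14 and 0 to 7, 1 to 6 and 3 to 13, 1 to 3 and 11 to 14, 1 to 4 and 5 to 9, and 3 to 14 and 0 to 11 in the same order. With 1 library left on a side, separation is easier by construction.

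Regions called between genotypes, 0 in edgeR, ranged without one library up to 671 (neurosphere H2AK119ub1, without Ctrl 1), 23 (hippocampus H3K27me3, without cKO 1), 2409 (neurosphere H3K27me3, without cKO 1) and 2039 (neurosphere H3K36me2, without cKO 1), where the lone library is assumed to vary like the others. With called length as an offset the counts were 1 (neurosphere H2AK119ub1), 303 (neurosphere H3K27me3) and 1 (hippocampus H3K36me2), and with DESeq2 32, 738 and 20, with 3 for hippocampus H3K27me3, 83 for neurosphere H3K36me2, and 47 and 10 for the H3K27me3 and H3K36me2 interactions. Between sources, H2AK119ub1 gave 0 to 253 without one library and 519 in DESeq2, H3K27me3 634 to 1974, and H3K36me2 814 to 2284, with 10 under the length offset and 3917 in DESeq2. Ascl2 turned to -0.031 per kb. The cause was not tested.

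Same-numbered libraries share only a number, and with 2 pairs their deviations correlated between -0.32 and 0.33. The replicate block gave 9 calls for hippocampus H3K27me3 and 2791 for H3K36me2 between sources, and changed no other count by over 1.5 times. A crossed pairing was not run, since the labels give no pairing.

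Apart from left-out libraries, 92 counts stayed within 1.5 times under the alternatives and 31 did not. With 2 libraries a group, a gene that differs cannot pass an exact test, and marks below the caller's threshold are not seen.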
